A study of Mus musculus with 3 samples.

Results

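The ephrins and their Eph receptors, the semaphorins and their plexin and neuropilin receptors, the Slits and their Robo receptors, and the netrins and their Unc5 and Dcc receptors were examined across the germ layers of the gastrulating mouse embryo. Members were taken by symbol, as every gene whose name begins with Epha, Ephb, Efna, Efnb, Sema, Plxn, Robo or Unc5, or with Slit or Ntn and a number, together with Nrp2 and Dcc. This rule found 70 of the 18193 genes that could be named on the array, measured by 152 probe sets. Of these, 67 belong to the guidance families, with 35 ligands and 32 receptors measured by 147 probe sets. The other 3, Unc5cl, Unc50 and Plxna4os1, share only the start of their names with the families and are given separately at the end.

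The study separated E7.5 embryos of the ICR strain into endoderm, mesoderm and epiblast, and hybridized total RNA of each layer to 1 Affymetrix Mouse Genome 430 2.0 array. All embryos were unmanipulated animals of the same strain and stage. The embryonic region was cut away from the extraembryonic part, loosened with trypsin and pancreatin, and pulled apart with a pipette and glass needles, so the epiblast sample also holds the primitive streak. The sources used here do not give the number of embryos behind each array.

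These families are best known for steering growing axons, and they carry short-range and long-range signals in the early embryo as well. Ephrins are tethered to the cell surface and signal on contact to Eph receptors of the neighbouring cell, with the ephrin itself signalling back, and this exchange keeps unlike cells apart at tissue boundaries. Semaphorins act through plexins, in several cases with a neuropilin as co-receptor, and alter the cytoskeleton and adhesion of the responding cell. Slits are secreted and act through Robo receptors, mostly as repellents, while netrins attract through Dcc and repel through Unc5 receptors.

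With 1 array per layer there is no spread between replicates, so no test was possible and every difference below compares 3 RNA samples, not 3 cell populations with known variation. A gene was called different between a pair of layers when its intensities differed by at least 2-fold and the higher of them lay above a floor of 80.63, the median of all values. Intensities are linear and have no unit, and they compare 1 probe set across layers, not 1 gene with another. Because whole layers were measured, fewer cells expressing a gene and less RNA per cell cannot be told apart. The only internal measure of error was the disagreement between probe sets of the same gene. In 25 guidance genes more than 1 probe set exceeded the floor, and over these the pooled SD of the log2 difference was 0.48 where endoderm was set against epiblast, 0.55 where mesoderm was, and 0.47 between endoderm and mesoderm. The corresponding values over all 5536 such genes on the array were 0.40, 0.27 and 0.39. A 2-fold difference is 1 on this log2 scale. This spread is technical, within the same RNA samples, and holds nothing of the variation between embryos.

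The labels were checked against marker genes. All 9 endoderm markers exceeded both other layers by at least 2-fold in endoderm, and 8 of 9 mesoderm markers were higher in mesoderm than in epiblast. Of 7 epiblast markers 4 were lower in endoderm and 6 lower in mesoderm than in epiblast. Pax6 was called in neither, with 181 in endoderm, 92.4 in mesoderm and 121 in epiblast. The endoderm marker Cer1 read 1606 in mesoderm and 50.4 in epiblast. Of the mesoderm markers, 2 were higher (Twist1 and Foxc2) and 3 lower in endoderm than in epiblast. Of 10 endothelial and blood markers 1 exceeded the floor, and Cdh5, Pecam1, Tek, Tie1 and Hbb-bh1 lay below it on all 3 arrays. Parietal endoderm and trophoblast markers differed between the layers, but not all in the same direction. The 7 measured, 6 of them above the floor, had summed intensities of 8263 in endoderm, 4509 in mesoderm and 3500 in epiblast. Sparc alone gave 4454, 2258 and 1360 of these. Sparc, Nid1, Lama1 and Plac1 were highest in endoderm. Thbd was highest in mesoderm, at 137, and Cdx2 in epiblast, at 1817. The summed intensity of 10 neuronal and glial markers came to 921 in endoderm and 857 in mesoderm, against 1715 in epiblast. The part of either list in the results below was not tested.

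Most guidance genes were detected. Of the 67 guidance genes, 54 (80.6%) exceeded the floor in at least 1 layer, against 70.3% of all genes. The ligands accounted for 32 of these 54, and 32 of 35 ligands but 22 of 32 receptors were above the floor. In 17 of the 67 (25.4%) at least 1 pair of layers was called different, against a background of 15.1% of all genes. Among genes above the floor the shares were 31.5% of guidance genes and 21.5% of all genes. The called genes were 9 of 35 ligands (25.7%) and 8 of 32 receptors (25.0%). Counted over the members above the floor, they were 9 of 32 ligands and 8 of 22 receptors.

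Calls in each direction were set against those of the whole array. Against epiblast, endoderm had 5 guidance genes higher (7.46%) and 2 lower (2.99%), against backgrounds of 8.77% and 2.76% of all genes. Mesoderm against epiblast had 7 higher (10.4%) and 4 lower (5.97%), with backgrounds of 2.36% and 2.19%. Endoderm against mesoderm had 3 higher (4.48%) and 6 lower (8.96%), with backgrounds of 8.00% and 2.67%. The shares in the comparison of endoderm with epiblast thus sat near the background, while both directions of mesoderm against epiblast, and the genes lower in endoderm than in mesoderm, were above it. When all probe sets of a gene were averaged, 2 of the 67 guidance genes were lower in endoderm than in mesoderm in place of 6. Over all 18193 genes this count was 376 in place of 486. Mesoderm against epiblast then gave 4 higher and 2 lower guidance genes in place of 7 and 4. Over all genes it gave 311 higher and 319 lower in place of 429 and 398. The 3 comparisons share their arrays and are not independent of each other.

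Taken as whole classes, ligands and receptors had medians of the same sign in each pair as deposited. Over the members above the floor, the median log2 difference of endoderm against epiblast was -0.29 for ligands and -0.19 for receptors, where that of all genes was 0.05. Endoderm against mesoderm gave -0.21 for ligands and -0.16 for receptors, with 0.07 for all genes. Mesoderm against epiblast gave -0.05 for ligands and -0.02 for receptors, with -0.02 for all genes. Of the 54 members above the floor, 28 had their lowest value in endoderm, 13 in mesoderm and 13 in epiblast. The highest value fell in endoderm for 11 members, in mesoderm for 20 and in epiblast for 23, whereas endoderm was the highest layer for 6006 of 12785 genes over the whole array. When the arrays were instead centred on housekeeping genes, the median of all genes moved to 0.26 for endoderm against epiblast and 0.10 for mesoderm against epiblast, and with it the median turned positive for receptors in both pairs, at 0.0048 and 0.10, and for ligands against epiblast in mesoderm, at 0.07.

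**Figure D1:**
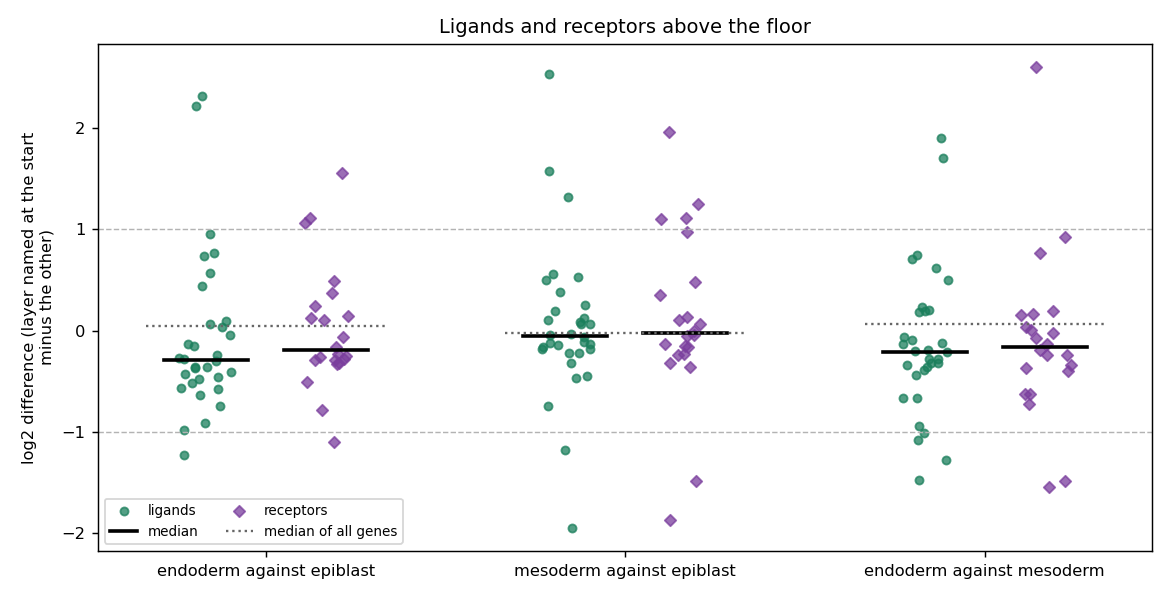
Each point is 1 ligand (green circle) or receptor (purple diamond) above the floor, and the vertical axis gives its log2 difference for the pair of layers named on the horizontal axis. Solid bars are medians, the dotted line is the median of all genes and the dashed lines mark 2-fold; for endoderm against epiblast the medians lie at -0.29 for ligands and -0.19 for receptors, below the 0.05 of all genes.

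Of the single members, Efnb1, Plxna2 and Sema6d were each at least 2-fold lower in epiblast than in both other layers. These are 3 of the 67 guidance genes, where 204 of all 18193 genes met the same rule. All 3 were above the floor in epiblast. Their promoters are shown because the members share this pattern, followed by those of Epha1 and Epha2, the Eph receptors with the widest range across the layers. Each sequence is the 250 bases before the transcription start, from RefSeq on GRCm38.p6, with capitals marking the E-box CAGGTG, to which Snail-family repressors bind, and the GATA-factor matches AGATAA or TGATAA. They lie at chrX:99135811-99136060 (plus strand) for Efnb1, chr1:194619579-194619828 (plus) for Plxna2, chr2:124089719-124089968 and chr2:124653331-124653580 (both plus) for the 2 starts of Sema6d, chr6:42373269-42373518 (minus) for Epha1 and chr4:141300971-141301220 (plus) for Epha2.
Efnb1: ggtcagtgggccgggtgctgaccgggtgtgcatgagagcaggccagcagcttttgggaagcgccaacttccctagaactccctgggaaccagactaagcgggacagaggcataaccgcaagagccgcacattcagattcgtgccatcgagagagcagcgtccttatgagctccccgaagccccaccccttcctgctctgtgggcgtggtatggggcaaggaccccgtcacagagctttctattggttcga
Plxna2: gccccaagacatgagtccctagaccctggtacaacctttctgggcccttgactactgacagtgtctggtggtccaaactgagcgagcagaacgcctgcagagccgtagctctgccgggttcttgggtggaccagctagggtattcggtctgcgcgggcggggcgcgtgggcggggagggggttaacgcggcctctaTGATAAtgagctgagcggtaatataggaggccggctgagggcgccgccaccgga
Sema6d start 1: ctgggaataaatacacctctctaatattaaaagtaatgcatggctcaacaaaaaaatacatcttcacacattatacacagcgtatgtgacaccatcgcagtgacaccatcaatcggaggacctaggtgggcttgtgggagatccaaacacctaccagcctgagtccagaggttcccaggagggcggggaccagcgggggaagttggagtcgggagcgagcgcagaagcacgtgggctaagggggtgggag
Sema6d start 2: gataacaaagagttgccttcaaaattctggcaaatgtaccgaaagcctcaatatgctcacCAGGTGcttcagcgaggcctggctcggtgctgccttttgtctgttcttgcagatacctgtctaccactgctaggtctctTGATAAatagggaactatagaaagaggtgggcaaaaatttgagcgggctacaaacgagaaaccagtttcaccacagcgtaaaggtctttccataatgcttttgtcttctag
Epha1: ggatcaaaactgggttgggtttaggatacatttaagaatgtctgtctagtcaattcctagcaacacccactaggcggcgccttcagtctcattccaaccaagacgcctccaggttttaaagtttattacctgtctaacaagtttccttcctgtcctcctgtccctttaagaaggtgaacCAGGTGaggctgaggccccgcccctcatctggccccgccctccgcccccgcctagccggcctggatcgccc
Epha2: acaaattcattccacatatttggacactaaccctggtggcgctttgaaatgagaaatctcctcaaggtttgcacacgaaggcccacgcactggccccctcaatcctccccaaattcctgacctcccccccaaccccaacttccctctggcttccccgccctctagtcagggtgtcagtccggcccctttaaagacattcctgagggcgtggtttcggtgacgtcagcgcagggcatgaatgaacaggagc

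A promoter was found for 16 of the 17 called genes, 23 promoters in all. Read on both strands, CAGGTG occurred in 5 of the 23, those of Efnb2, Epha1, Robo1, the first start of Plxnb2 and the second of Sema6d, and in 17.2% of all 32817 promoters of this length. A GATA match occurred in 2 of the 23, those of Plxna2 and the second start of Sema6d, and in 16.6% of all. The GC box GGGCGG occurred in 17 of the 23 and in 32.7% of all. A match describes letters in this window and is not a measured binding site.

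Of the 8 ephrins, 5 were called in some pair of layers (62.5%), against the 15.1% of all genes, and no test of the difference between families was made. Endoderm was at least 2-fold lower than mesoderm in 4 of the 8 and higher in 0. Of these 4 calls, those of Efna2, Efna3 and Efnb2 ended when the probe sets of each gene were averaged, and that of Efna1 held. Efnb1, a transmembrane ephrin that binds EphB receptors, was highest in endoderm. It had an intensity of 1678 in endoderm, 1001 in mesoderm and 336 in epiblast, 4.99-fold higher in endoderm and 2.98-fold higher in mesoderm than in epiblast. All 3 of its probe sets gave the endoderm difference, at log2 values between 1.66 and 2.78, and 2 of 3 gave the mesoderm difference. In 1 of the 3, a dimmer probe set, endoderm was also called higher than mesoderm, at a log2 difference of 1.10.

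Efnb2, the related ligand of EphB receptors and EphA4 that is known from vessel and somite boundaries, ran the other way. It measured 504 in endoderm, 1015 in mesoderm and 946 in epiblast, 2.01-fold lower in endoderm than in mesoderm, which is at the threshold. Its second probe set gave a log2 difference of -0.94 and was not called. The Efna genes encode the GPI-anchored ephrins, which bind EphA receptors. Efna1 measured 84.2 in endoderm, 234 in mesoderm and 197 in epiblast, the only guidance gene at least 2-fold lower in endoderm than in both other layers. It was 2.33-fold lower in endoderm than in epiblast and 2.78-fold lower than in mesoderm. Both of its probe sets were called against mesoderm, the dimmer by at least 1.64-fold with the low value raised to the floor.

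Efna3 measured 152 in endoderm, 369 in mesoderm and 148 in epiblast, so mesoderm exceeded epiblast 2.50-fold and endoderm was 2.43-fold lower than mesoderm. Efna2 measured 251 in endoderm, 530 in mesoderm and 360 in epiblast, 2.11-fold lower in endoderm than in mesoderm. In both genes the call rests on the brighter probe set and ended when the 2 were averaged, as the other read 129 in endoderm, 148 in mesoderm and 169 in epiblast for Efna3, and 251 in endoderm, 293 in mesoderm and 290 in epiblast for Efna2. Efna5 measured 466 in endoderm, 736 in mesoderm and 919 in epiblast, at most 1.97-fold apart, just inside the threshold. Efna1, Efna3 and Efna4 lie next to each other on chromosome 3 with no protein-coding gene between them. Efna4 nevertheless had its highest value in endoderm, with 356 in endoderm, 313 in mesoderm and 240 in epiblast.

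**Figure D2:**
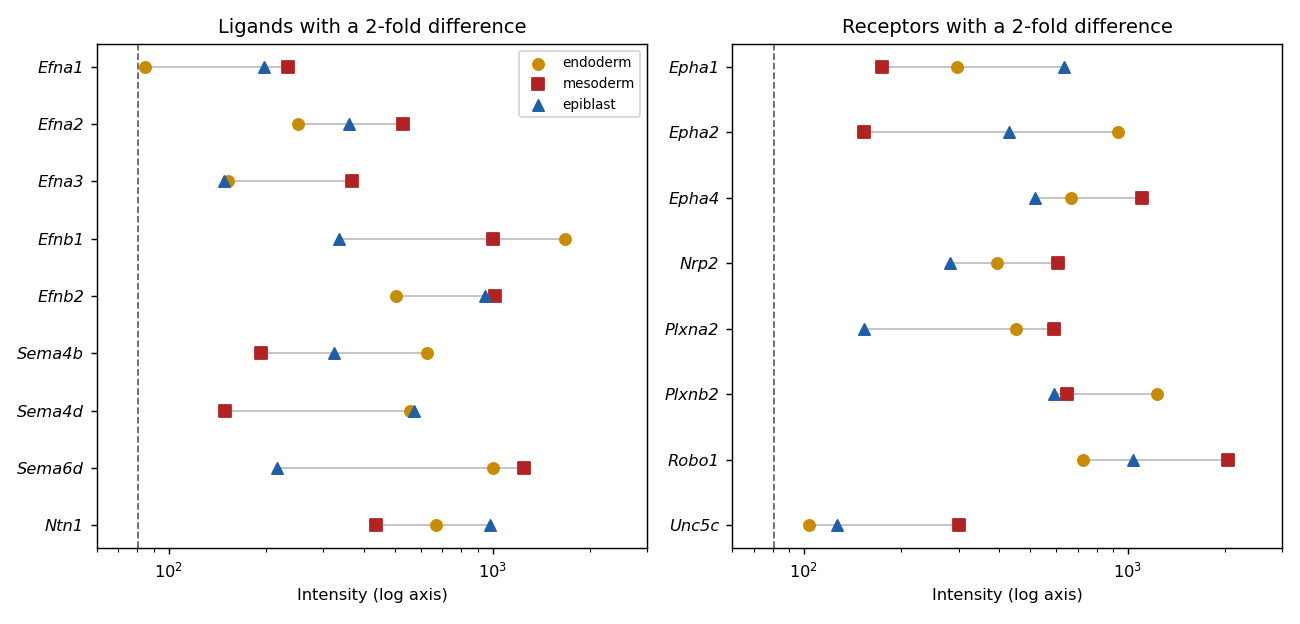
Intensity (log axis) of each of the 17 called guidance genes in endoderm (circles), mesoderm (squares) and epiblast (triangles), 1 array each, with ligands in the left panel and receptors in the right. The dashed line is the floor of 80.63; Efnb1, Sema6d and Plxna2 have their lowest point in epiblast, and Epha2 and Sema4d in mesoderm.

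Among the Eph receptors 3 of 13 were called (23.1%, against 15.1% of all genes), and the 2 with the widest range were both lowest in mesoderm. Epha2, a receptor for ephrin-A ligands, measured 932 in endoderm, 153 in mesoderm and 430 in epiblast. It was 6.07-fold higher in endoderm than in mesoderm and 2.17-fold higher than in epiblast, and 2.80-fold lower in mesoderm than in epiblast. No other guidance gene exceeded both other layers 2-fold in endoderm by its brightest probe set, though a dimmer probe set of Efnb1 and of Sema4a did. Epha2 has a single probe set on the array. After quantile normalization its log2 difference of endoderm against epiblast was 0.82, short of a call. Epha1, the founding member of the receptor family, measured 296 in endoderm, 174 in mesoderm and 635 in epiblast. It was 2.14-fold lower in endoderm and 3.66-fold lower in mesoderm than in epiblast. By brightest probe set, no other guidance gene was at least 2-fold higher in epiblast than in both other layers. Dimmer probe sets of Sema3e were called lower in both other layers than in epiblast and are given below. The other 2 probe sets of Epha1 were below the floor, and the mean over all 3 gave log2 differences of -0.47 for endoderm, which would not be called, and -1.03 for mesoderm.

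Epha4, which binds ephrins of both classes, had its peak in mesoderm. It measured 669 in endoderm, 1108 in mesoderm and 517 in epiblast, 2.14-fold higher in mesoderm than in epiblast. Over its 4 probe sets above the floor this log2 difference lay between 0.89 and 1.10, so the probe sets gave nearly the same size on either side of the threshold. The EphB receptors above the floor, among the partners of Efnb1 and Efnb2, stayed within 2-fold. Ephb2 was not among the genes that could be named on the array, so its level is not known here. Ephb4 measured 334 in endoderm, 350 in mesoderm and 349 in epiblast, the smallest range of all guidance genes above the floor at 1.05-fold. Ephb3 measured 861 in endoderm, 767 in mesoderm and 790 in epiblast, at most 1.12-fold apart. Endoderm and epiblast, which differed 4.99-fold in the ligand Efnb1, differed 1.09-fold in this receptor. Epha3, Epha5, Epha6 and Ephb6 were below the floor on all 3 arrays.

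Of the 20 semaphorins 3 were called (15.0%), near the 15.1% of all genes. The 3 are of the membrane-bound classes. No secreted class 3 semaphorin was called by its brightest probe set, and Sema3c, Sema3d and Sema3g were below the floor. So few calls are no result about the classes. Sema6d, a transmembrane semaphorin that acts through Plxna1 and is known from heart morphogenesis in the chick, had 1001 in endoderm, 1249 in mesoderm and 215 in epiblast. That is 4.65-fold higher in endoderm and 5.80-fold higher in mesoderm than in epiblast. Its other probe set above the floor read 66.1 in endoderm, 83.2 in mesoderm and 59.2 in epiblast. The mean of its 4 probe sets gave log2 differences of 0.45 for endoderm and 0.81 for mesoderm, which would not be called.

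Sema4d, the ligand of Plxnb1, and Sema4b, of the same subclass, were both lowest in mesoderm. Sema4d measured 555 in endoderm, 149 in mesoderm and 573 in epiblast, 3.73-fold higher in endoderm than in mesoderm and 3.85-fold lower in mesoderm than in epiblast. Its other probe sets did not show this, with 121 in endoderm, 112 in mesoderm and 131 in epiblast for the brighter of them. The mean over probe sets gave a log2 difference of 0.54 for endoderm against mesoderm and another of -0.64 when mesoderm was set against epiblast. Sema4b measured 628 in endoderm, 193 in mesoderm and 323 in epiblast, 3.26-fold higher in endoderm than in mesoderm. Its second probe set did not reach the floor, and its call held in all 9 alternative settings, at a log2 difference of 1.07 when its probe sets were averaged.

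The other 14 semaphorins above the floor stayed within 2-fold, among them Sema3f, the ligand of Nrp2, with 399 in endoderm, 496 in mesoderm and 510 in epiblast. Sema4a, a membrane-bound semaphorin, measured 407 in endoderm, 287 in mesoderm and 299 in epiblast by its brightest probe set. In 3 of the 14 a dimmer probe set crossed the threshold where the brightest did not. For Sema3e, the ligand of Plxnd1, 2 of 4 probe sets were called lower in endoderm and in mesoderm than in epiblast. The low values lay under the floor. Raised to it, they left differences of at least 1.76-fold in the brighter of these probe sets and 1.41-fold in the dimmer. The brighter read 55.9 in endoderm, 50.2 in mesoderm and 142 in epiblast. For Sema4a the second probe set read 164 in endoderm, 36.2 in mesoderm and 65.1 in epiblast. For Sema6a a probe set read 111 in endoderm, 78.8 in mesoderm and 173 in epiblast. Another read 175 in endoderm, 69.4 in mesoderm and 104 in epiblast, so they ordered endoderm and epiblast differently. No guidance gene had probe sets called in opposite directions.

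**Figure D3:**
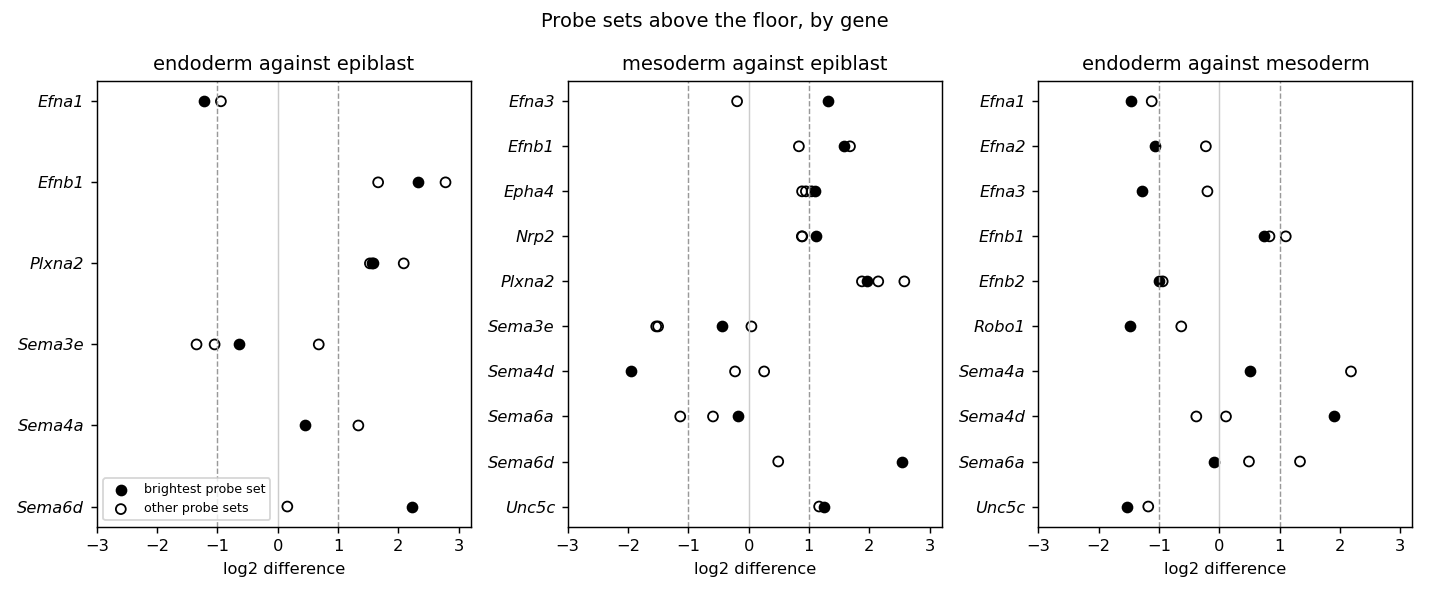
Log2 difference (horizontal axis) for each probe set above the floor in the guidance genes with several such probe sets and at least 1 call, in 1 panel per pair of layers. Filled points are the brightest probe set, open points the others, and dashed lines mark 2-fold; the 4 Plxna2 probe sets lie together between 1.88 and 2.58 for mesoderm against epiblast, while those of Sema6d and Sema4d spread apart.

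Of the plexins and Nrp2, 3 of 10 were called and all 10 exceeded the floor. Plxna2, a receptor for class 3 and class 6 semaphorins, measured 450 in endoderm, 593 in mesoderm and 153 in epiblast. It was 2.95-fold higher in endoderm and 3.88-fold higher in mesoderm than in epiblast, the same side as Sema6d and Efnb1. All 4 of its probe sets were called in both comparisons, at log2 values between 1.53 and 2.09 for endoderm and between 1.88 and 2.58 for mesoderm. Plxnb2, a receptor for class 4 semaphorins, measured 1230 in endoderm, 648 in mesoderm and 590.5 in epiblast, 2.08-fold higher in endoderm than in epiblast by a single probe set. Nrp2, the co-receptor for Sema3f, measured 396 in endoderm, 609 in mesoderm and 282 in epiblast, 2.16-fold higher in mesoderm than in epiblast, with its 3 probe sets above the floor between 0.88 and 1.11 on the log2 scale. Averaged over all 4 of its probe sets it came to 0.76, short of a call.

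The remaining plexins varied little. Plxna1 measured 921 in endoderm, 1005 in mesoderm and 1126 in epiblast, at most 1.22-fold apart. Plxnb1, the receptor of Sema4d, measured 324 in endoderm, 330 in mesoderm and 386 in epiblast. Its second probe set was lowest in mesoderm, with 280.05 in endoderm, 212 in mesoderm and 350.4 in epiblast. It was not called. Plxnd1, the receptor of Sema3e, measured 184 in endoderm, 217 in mesoderm and 171 in epiblast.

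All 3 Slits were above the floor and 0 were called. The widest range was that of Slit3, with 206 in endoderm, 397 in mesoderm and 346 in epiblast, 1.92-fold at most. Slit2 was highest in endoderm, with 292 in endoderm, 249 in mesoderm and 176 in epiblast. Slit1 was nearly level, with 237 in endoderm, 248 in mesoderm and 226 in epiblast. Of their 4 receptors only Robo1 was above the floor. Robo1 measured 727 in endoderm, 2032 in mesoderm and 1036 in epiblast, 2.79-fold lower in endoderm than in mesoderm. Its second probe set was highest in epiblast, with 102 in endoderm, 158 in mesoderm and 198 in epiblast, so both placed endoderm lowest but they ordered mesoderm and epiblast differently, and the mean over its probe sets gave a log2 difference of -0.88 for endoderm against mesoderm, short of a call.

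Of the 4 netrins, Ntn1 was called (25.0%, against 15.1% of all genes), and 1 call is no result about the family. All 4 had their highest value in epiblast, as had 4161 of 12785 genes over the whole array. The other 3 stayed within 2-fold. Ntn3, close to the floor, measured 84.6 in endoderm, 92.59 in mesoderm and 99.98 in epiblast. Ntn1, a laminin-related secreted protein, measured 666 in endoderm, 435 in mesoderm and 984 in epiblast, 2.26-fold lower in mesoderm than in epiblast. Its second probe set was below the floor, and with both averaged the log2 difference was -0.73. Ntn4, a netrin of basement membranes, measured 130 in endoderm, 165 in mesoderm and 181 in epiblast. Ntn5 stayed within 2-fold too, at 108 in endoderm, 94.7 in mesoderm and 131 in epiblast. Of the receptors, Dcc, Unc5a and Unc5d were below the floor in every layer. Unc5c measured 104 in endoderm, 302 in mesoderm and 127 in epiblast. It was 2.90-fold lower in endoderm than in mesoderm and 2.38-fold higher in mesoderm than in epiblast. Both of its probe sets were called in both pairs, the dimmer by at least 1.53-fold with low values raised to the floor. With Efna3, Unc5c was 1 of 2 guidance genes at least 2-fold higher in mesoderm than in both other layers. Mesoderm, the layer highest in this repulsive receptor, was lowest in Ntn1 by its brightest probe set. Ntn1 was not called between endoderm and mesoderm, at 1.53-fold, and a link between the 2 genes was not tested. Unc5b was nearly level and lowest in mesoderm, with 412 in endoderm, 368 in mesoderm and 460 in epiblast.

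**Figure D4:**
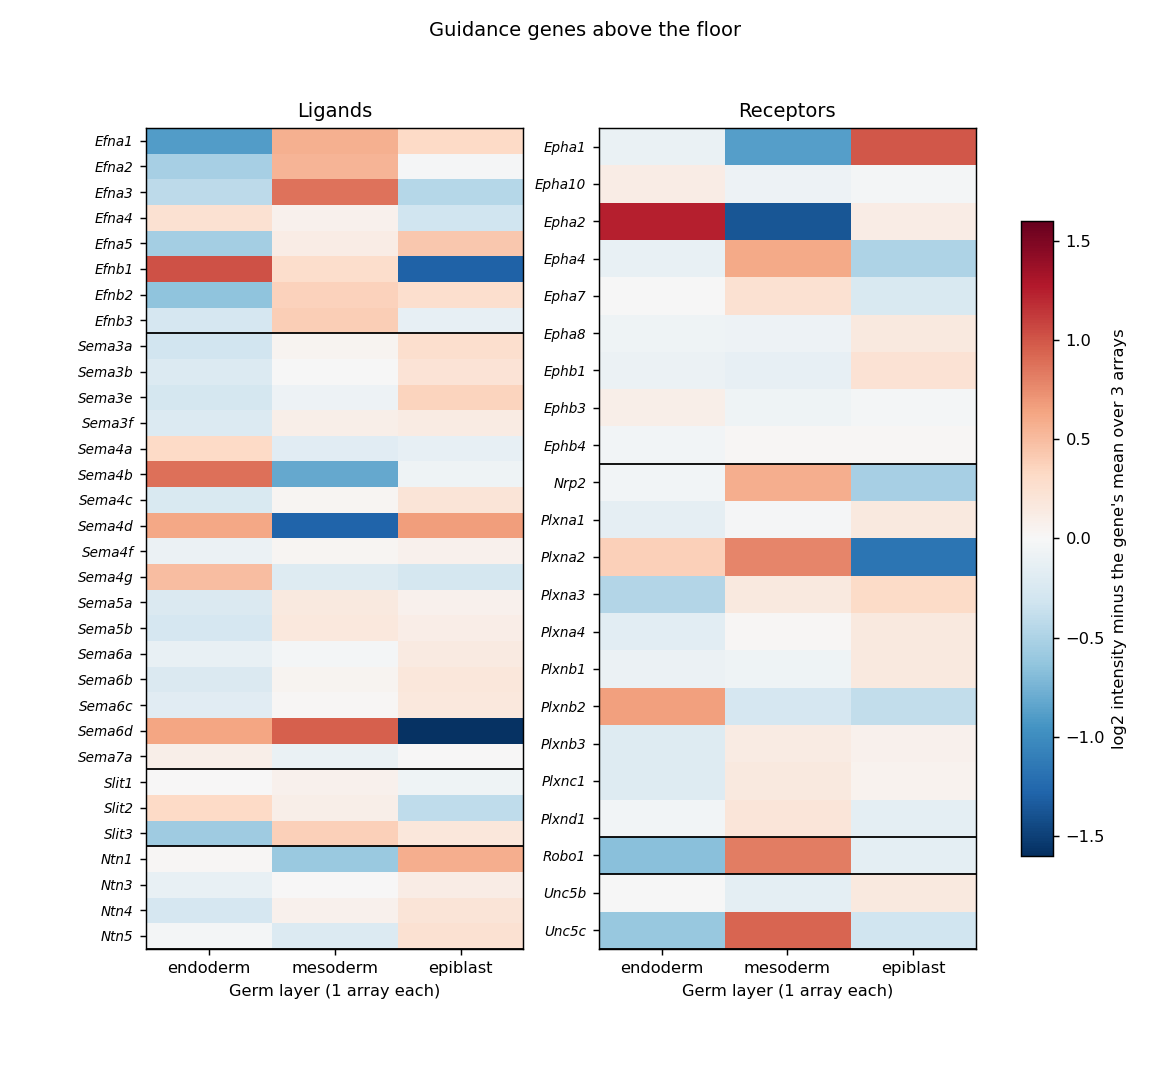
Log2 intensity of each guidance gene above the floor minus that gene's mean over the 3 arrays, with ligands on the left, receptors on the right and families separated by black lines; columns are the layers (1 array each). Red is above and blue below the gene's own mean. Of the 54 genes 28 are lowest in endoderm, against 4534 of 12785 genes over the whole array. The deepest blue cells in epiblast are Sema6d, Efnb1 and Plxna2.

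Besides the 17 called genes, 37 guidance genes above the floor stayed within 2-fold over the 3 layers. Their largest differences ran between 1.05-fold and 1.97-fold, with a median of 1.29-fold, and their highest values between 85.2 and 1126. The 13 genes below the floor on every array reached at most 77.7, and levels this low do not show whether a gene was absent or out of the array's reach. They were 10 receptors, among them Robo2, Robo3 and Robo4, and the ligands Sema3c, Sema3d and Sema3g.

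Genes that act with these families were read from lists of known partners. The shares of all genes called, given above for each pair and direction, are their background, and in lists this short 1 or 2 calls are no result about the list. Of the 20 Eph and ephrin partners, 1 was called higher and 0 lower for endoderm against epiblast, 1 higher and 1 lower for mesoderm against epiblast, and 1 higher and 0 lower for endoderm against mesoderm. Adam10, the protease that sheds ephrins from the cell surface, measured 1306 in endoderm, 853 in mesoderm and 420 in epiblast, the same order of layers as Efnb1. Pick1, a PDZ-domain protein that binds the tails of ephrin-B ligands and Eph receptors, measured 408 in endoderm, 161 in mesoderm and 435 in epiblast. Of the 26 semaphorin and plexin partners, 3 were higher and 2 lower for endoderm against epiblast, 2 higher and 2 lower for mesoderm against epiblast, and 4 higher and 4 lower for endoderm against mesoderm. Crmp1, a cytoplasmic mediator of semaphorin signals, measured 183 in endoderm, 667 in mesoderm and 1695 in epiblast, 9.26-fold lower in endoderm and 2.54-fold lower in mesoderm than in epiblast. Vegfa, which shares neuropilins with the class 3 semaphorins, measured 554 in endoderm, 380 in mesoderm and 150 in epiblast. L1cam, an adhesion molecule that joins neuropilin in receiving Sema3a, measured 96.4 in endoderm, 339 in mesoderm and 160 in epiblast. Rnd2, of the Rnd group of GTPases that bind plexins, was highest in endoderm, with 652 in endoderm, 187 in mesoderm and 348 in epiblast.

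Of the 14 Slit and Robo partners, 1 was higher and 2 lower for endoderm against epiblast, 0 higher and 1 lower for mesoderm against epiblast, and 1 higher and 2 lower for endoderm against mesoderm. Flrt3, a membrane protein that binds Robo1 and the Unc5 receptors, measured 3022 in endoderm, 750 in mesoderm and 819 in epiblast, 4.03-fold higher in endoderm than in mesoderm. The heparan sulfate carriers Sdc1 and Gpc1, which can hold Slits at the cell surface, were lower in endoderm, Sdc1 with 866 in endoderm, 2008 in mesoderm and 2123 in epiblast. Gpc1 measured 229 in endoderm, 513 in mesoderm and 493 in epiblast. Srgap3, a GTPase-activating protein that binds Robo1, measured 139 in endoderm, 85.4 in mesoderm and 212 in epiblast. Of 17 netrin partners measured out of 19 listed, 1 was higher and 1 lower for endoderm against epiblast, 1 higher and 0 lower for mesoderm against epiblast, and 0 higher and 1 lower for endoderm against mesoderm. Flrt2, the related ligand of Unc5 receptors, measured 99.9 in endoderm, 217 in mesoderm and 79.4 in epiblast, highest in the same layer as Unc5c. Rgma, a ligand of Neo1, measured 320 in endoderm, 436 in mesoderm and 692 in epiblast. Elmo1, part of a Rac activator, measured 483 in endoderm, 278 in mesoderm and 238 in epiblast. Neo1, the Dcc relative that also binds netrins, was not called at 952 in endoderm, 824 in mesoderm and 648 in epiblast, while Dcc itself lay below the floor.

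The genes matched by name alone behaved as single cases. Unc5cl measured 111 in endoderm, 27.4 in mesoderm and 31.8 in epiblast, so endoderm exceeded either by at least 1.38-fold once the low values were raised to the floor. Unc50 was not called, at 1757 in endoderm, 1260 in mesoderm and 1183 in epiblast. Plxna4os1, an antisense transcript of Plxna4, was below the floor in all layers.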

How the data were processed

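Total RNA of 3 germ layers was hybridized to 1 array each. Per the paper's methods, the authors read the arrays with AGCC, applied RMA background correction and normalization and computed expression values with the affy package. The deposited values are linear intensities between 1 and 15687.8, with array medians of 79.89 for endoderm, 79.91 for mesoderm and 82.19 for epiblast, and any rescaling after RMA is not stated, nor is a genome build for the array annotation given in the sources used here. The number of arrays limits the precision. The SAM test that the methods name needs replicates and was not run.

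Of 45037 probe sets, 34945 carried 1 symbol, 932 several and 9160 none. Entrez numbers of 34741 matched RefSeq, which altered 0 symbols. No member came from a probe set with several symbols. Each of 18193 genes was represented by its brightest probe set, by mean log2 intensity. Differences are of log2 intensities computed here from the deposited values, with no further normalization. Calls needed 2-fold and the higher value above the median of all values (80.63). Lower values under this floor were raised to it and the fold written as at least. Members and lists were chosen with earlier results of these data known. Genes named are all called members, the 2 brightest members per family within 2-fold, and the members called by another probe set alone. Up to 4 called partners per list were named by range. Plxnd1, Slit2, Ntn3, Neo1, Unc50 and Plxna4os1 stand beside related genes. The last of these and Unc50 were assigned to neither class after their symbols were seen.

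Promoters are RefSeq's on GRCm38.p6. Alternatives were floors, folds, a mean over probe sets, leaving out cross-hybridizing probe sets, quantile and cyclic loess normalization, housekeeping centring and 16 added before log2. The scripts were tested on simulated data. Python 3.11.15, numpy 2.4.6, pandas 2.3.3, matplotlib 3.10.9, R 4.3.3 and limma 3.58.1 were used.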

Additional observations from a re-analysis of the deposited data

How the results depend on the processing

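Of 27 calls over the 3 pairs of layers, 5 were kept in all 9 alternative settings, those of Efnb1 for endoderm against epiblast, Epha1 and Plxna2 for mesoderm against epiblast, and Epha2 and Sema4b for endoderm against mesoderm. The other 22 were lost in at least 1 setting, and 0 reversed. The 3-fold threshold by its making ends any call under 3-fold, and averaging cannot alter Epha2 or Plxnb2, with 1 probe set each. The count of kept calls thus partly restates fold size and probe set number. Averaging all probe sets of a gene left 1 guidance gene lower in endoderm than in epiblast in place of 2. Over all genes 388 were left in place of 503. For mesoderm against epiblast averaging left 4 higher and 2 lower guidance genes in place of 7 and 4, with 311 and 319 of all genes in place of 429 and 398. It left 2 guidance genes lower in endoderm than in mesoderm in place of 6, with 376 of all genes in place of 486. It ended the calls of Sema6d, Sema4d, Robo1, Efna2, Efna3, Efnb2, Ntn1 and Nrp2, and that of Epha1 for endoderm against epiblast. A threshold of 3-fold left 2 higher and 0 lower in endoderm than in epiblast, 2 higher and 2 lower in mesoderm than in epiblast, and 0 lower in endoderm than in mesoderm. For endoderm against epiblast, as deposited 5 higher and 2 lower, quantile normalization gave 3 higher and 4 lower, cyclic loess 4 lower, housekeeping centring 1 lower and a floor at the 75th percentile 1 lower. Quantile normalization ended the Epha2 and Plxnb2 calls of that pair, and moved the share of calls over all genes that were higher in endoderm to 64.5%, against 76.0% as deposited. It also moved the median of all genes above the floor to -0.11, where it was 0.05 as deposited. For endoderm against mesoderm, housekeeping centring gave 4 higher and 4 lower guidance genes, against 3 and 6 as deposited. No paired analysis was possible because each layer has 1 array. No replicate could be left out for the same reason. Values near the floor of 80.63 limit what the array can show.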
